A study of Mus musculus with 4 samples.

Results

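The 10 genes described here write, read out or remove DNA methylation, or make the substrate that its removal needs. They are the 3 TET dioxygenases (Tet1, Tet2 and Tet3), the DNA methyltransferase genes Dnmt1, Dnmt3a and Dnmt3b with their cofactor gene Dnmt3l, Uhrf1, and the isocitrate dehydrogenase genes Idh1 and Idh2. They were chosen by symbol from the 24497 genes of the deposited table, which excludes 92 rows of ERCC spike-in RNA, and all 10 were found. RNA had been sequenced from cultured mouse acute myeloid leukaemia cells carrying NRAS and AE9a, the truncated AML1-ETO fusion made by alternative splicing. Haematopoietic stem cells from bone marrow of mice with intact Tet2 (WT, 2 libraries) or of Tet2-/- mice lacking its exon 3 (Tet2 KO, 2 libraries) had been used to make them. The medium of both groups held G418 (1 mg/ml), puromycin (2 µg/ml), stem cell factor (50 ng/ml), and IL-6 and IL-3 (10 ng/ml each). No source used here gives the age of the mice or the number of animals, cultures or clones behind each group, so p-values here reflect no more than how far these libraries lie apart, and that spread can be technical. Cells of WT and Tet2 KO origin share both oncogenes and all additives and differ in the labels by genotype alone.

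TET enzymes oxidise 5-methylcytosine to 5-hydroxymethylcytosine and beyond, using 2-oxoglutarate, oxygen and iron, and the oxidised bases are lost by base excision repair or through replication. DNMT1, guided to newly replicated DNA by UHRF1, copies the methylation pattern onto the daughter strand, while DNMT3A and DNMT3B set new marks and DNMT3L, which has no catalytic activity of its own, assists them. IDH1 in the cytosol and IDH2 in mitochondria make 2-oxoglutarate from isocitrate. TET2, DNMT3A, IDH1 and IDH2 are among the genes recurrently mutated in human acute myeloid leukaemia.

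Values were deposited as TPM, a transcript abundance scaled per transcript length and to a fixed total. The levels of different genes can therefore be set side by side, but the depth of each library is unknown. Of the 12 listed blast and myeloid markers, which include Ptprc, Spi1, Mpo and Itgam, all 12 were at 1 TPM or more in every library. Members of this list differed both ways: the lysozyme gene Lyz2 had 19230.84 and 19238.91 TPM in WT libraries against 7574.7 and 7652.26 TPM with Tet2 KO, which sets the summed level (20649 and 20669 against 9056 and 9174 TPM). Spi1, Itgam, Cebpe and Csf1r were, like Lyz2, lower in both Tet2 KO libraries than in both WT libraries. The stem cell factor receptor gene Kit had 11.63 and 11.99 TPM against 201.19 and 209.41 TPM. Mpo, Cd33, Cebpa, Csf3r, Ptprc and, by little, Runx1t1 were also higher in both Tet2 KO libraries. No T and NK cell, B cell or erythroid marker reached 1 TPM in all libraries, with Cd3e, Ncr1, Pax5 and Hbb-bs listed at 0 throughout, and of the 8 stromal and endothelial markers only Pdgfrb did. Summed levels of these 4 lists were nonetheless higher in Tet2 KO: 3.73 and 3.91 TPM against 1.22 and 0.83 TPM for the 7 T and NK cell markers, mostly Lck, 0.72 and 0.82 against 0.13 and 0.16 TPM for the 5 B cell markers, 1.6 and 1.45 against 0.11 and 0.82 TPM for the 5 erythroid markers, and 17.2 and 18.2 against 4.73 and 4.76 TPM for the stromal markers, nearly all Pdgfrb. The part of these differences in the results below was not tested. The groups were compared with limma on log2(TPM + 1), over 11452 genes that reached 1 TPM in at least 2 libraries, with Benjamini-Hochberg adjustment. Every log2 fold change below is on that scale, and a gene is called where its adjusted p is under 0.05.

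The scale on which libraries are compared matters for these genes. On the deposited scale the median log2 fold change of all tested genes was 0.228, and 54.4% of them were called higher and 19.5% lower in Tet2 KO. After median-ratio scaling, which brings that median to -0.004, 32.7% were called higher and 34.8% lower. ERCC spike-in RNAs made up 4.38 and 4.43% of TPM in WT but 5.48 and 5.33% in Tet2 KO. After scaling to them 29.6% of genes were called higher and 37.8% lower, and after quantile normalization 34.2% higher and 32.7% lower. The members are described on the deposited scale first and then on these 3 others.

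In Tet2 KO cells Idh1 RNA was 2.64-fold lower and Dnmt3l RNA 1.63-fold lower than in WT, while Dnmt1 rose 1.49-fold and Tet3 1.43-fold. These 4 differences were called in the same direction on all 4 scales. Dnmt3a, Dnmt3b and Idh2 were called higher on the deposited scale, but none of them on every scale. Tet2 and Uhrf1 stood near WT level on the deposited scale and were called lower on each of the other 3. Tet1 was below the filter and was not tested. On the deposited scale 7 of the 9 tested members were called, 5 higher and 2 lower, where 73.9% of all tested genes were called. After median-ratio scaling 2 were higher and 4 lower (67.5% of tested genes called), and after spike-in scaling (67.4%) and quantile normalization (66.9%) 3 were higher and 4 lower. Of all tested genes 28.3% were called higher and 19.2% lower on all 4 scales, 47.5% together, beside 2 and 2 of the 9 members. The libraries of the groups did not overlap for 5 tested members that were higher and 3 that were lower, where 62.4% and 24.4% of tested genes were so placed. None of these counts sets the members apart from other genes. In bulk RNA, fewer cells of a type and less RNA per cell cannot be told apart.

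**Figure D1:**
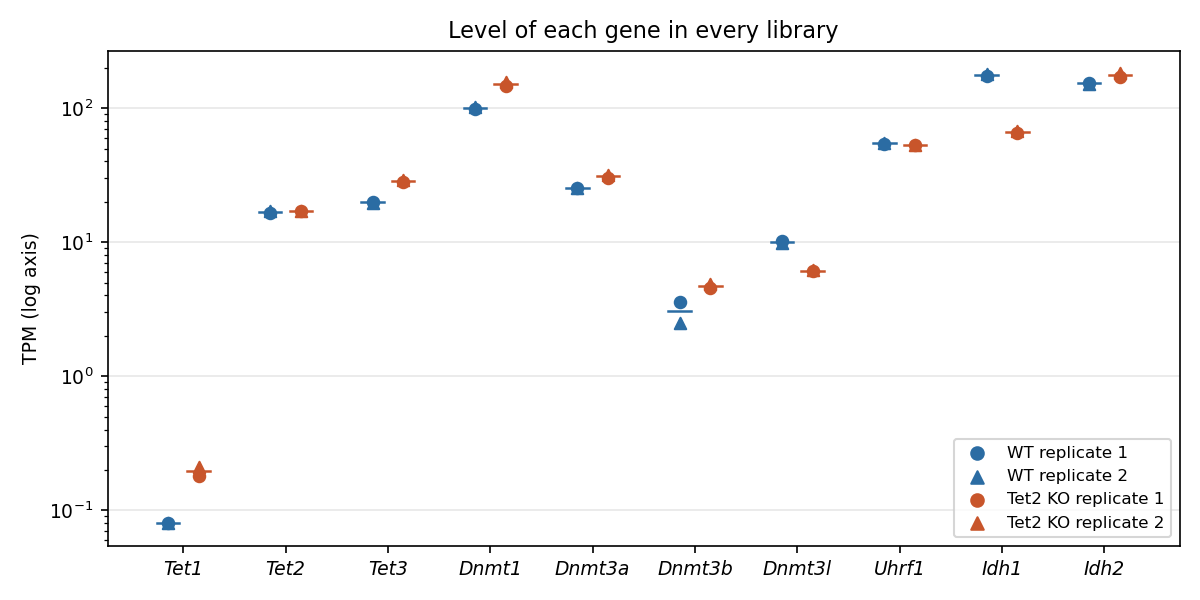
Level of each of the 10 genes in every library, in TPM on a log axis. Circles and triangles are replicates 1 and 2, blue is WT, orange is Tet2 KO, and short lines are group means. Idh1 is the gene whose groups lie farthest apart among those above 1 TPM (175.9 against 66.5 TPM), and Dnmt3b has the widest gap between replicates among the same genes.

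By level, the genes ran in WT from Idh1 and Idh2 through Dnmt1, Uhrf1, Dnmt3a, Tet3, Tet2, Dnmt3l and Dnmt3b to Tet1. In Tet2 KO the order was the same except at the top, where Idh2 and Dnmt1 now stood above Idh1. Within each group no library of one gene overlapped the libraries of its neighbour in this order, although with 2 libraries the spread is known only roughly.

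The design text places the lesion of the Tet2-/- mice in exon 3 of Tet2 (chr3:133463679-133545139, minus strand, mm10). In the GENCODE M21 transcript with 11 exons this is a single long exon (chr3:133485512-133488717) of 3206 bases, 34.9% of the transcript, and it holds the start codon and 3160 of the 5739 coding bases (55.1%). The coding part is 1 base longer than a whole number of codons. The start of the coding sequence and the junction at the end of the exon are shown because they mark what a transcript without exon 3 lacks. In the first stretch (chr3:133488612-133488671) the capitals are the start codon. In the second, the last 60 bases of exon 3 (chr3:133485512-133485571) in lower case are followed by the first 30 bases of exon 4 (chr3:133483288-133483317) in capitals. Both are from GENCODE M21 transcripts (GRCm38), written 5′ to 3′ along the gene.
Tet2 coding start in exon 3: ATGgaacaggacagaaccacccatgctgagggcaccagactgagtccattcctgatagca
Tet2 exon 3 to exon 4: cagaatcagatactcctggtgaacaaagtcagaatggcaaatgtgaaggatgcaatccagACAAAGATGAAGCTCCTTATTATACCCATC

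WT libraries had 16.62 and 16.98 TPM of Tet2 and Tet2 KO libraries 16.98 and 16.95 TPM, so the libraries of the groups overlapped. The log2 fold change was 0.01 (95% interval -0.13 to 0.16, limma adjusted p = 0.868). The table gives 1 value per gene and does not separate exon 3, so this level says nothing about the deletion itself and the genotype label cannot be checked with it. On the other 3 scales Tet2 was lower in Tet2 KO, by a log2 fold change of -0.23 after median-ratio scaling (limma adjusted p = 0.00831), -0.27 after spike-in scaling (limma adjusted p = 0.00278) and -0.25 after quantile normalization (limma adjusted p = 0.00491).

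Tet3, the paralogue without a DNA-binding CXXC domain in some isoforms and the more abundant TET transcript here (chr6:83362373-83459084), stood at 20.03 and 19.77 TPM in WT libraries against 27.89 and 29.21 TPM with Tet2 KO. The groups did not overlap, as was the case for 86.8% of all tested genes. The log2 fold change of 0.50 had an SE of 0.0631 (limma adjusted p = 2.47e-06). On the other 3 scales it came to 0.26, 0.22 and 0.25, with limma adjusted p from 0.00255 to 0.00888. Tet1 (chr10:62804570-62908996), the TET best known from embryonic stem cells, had 0.08 TPM in both WT libraries and 0.18 and 0.21 TPM in Tet2 KO. All 4 values lie far below those of Tet2 and Tet3, and without the filter on low values Tet1 would be called higher.

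Ratios within a library do not move when a library is scaled by a single factor, as in median-ratio and spike-in scaling, but can move under quantile normalization. Tet2 made up 45.2 and 46.1% of the summed TET TPM in WT, and 37.7 and 36.6% in Tet2 KO. Tet3 took the larger share in every library, 54.5 and 53.7% in WT and 61.9 and 63.0% in Tet2 KO. Tet1 stayed at or below 0.453%. The sum of the 3 genes was 36.7 and 36.8 TPM in WT and 45.0 and 46.4 TPM in Tet2 KO. Both Tet2 KO libraries thus had a larger Tet3 share than both WT libraries. With 2 libraries against 2 no permutation test of these shares can reach a threshold of 0.05, and none was run.

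**Figure D2:**
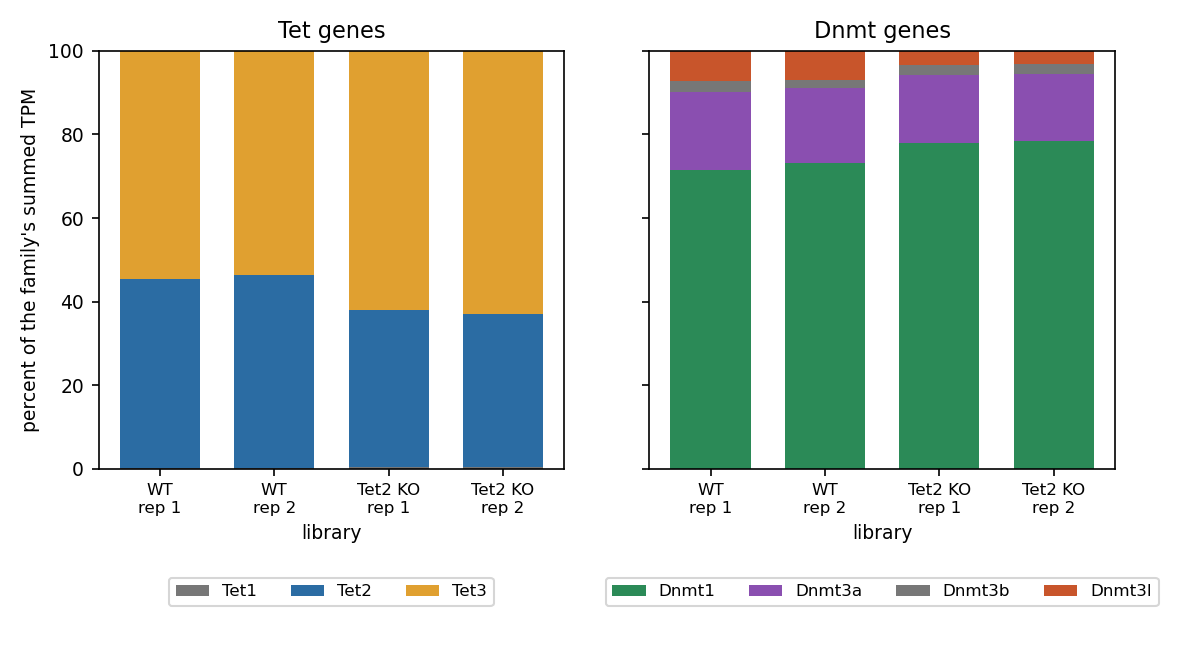
Share of each gene in the summed TPM of its family, in percent, for every library (left Tet genes, right Dnmt genes). Tet3 fills 61.9 and 63.0% of the Tet bars in Tet2 KO against 54.5 and 53.7% in WT, and the Dnmt3l segment narrows from 7.4 and 6.99% to 3.28 and 3.11%.

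Among the methyltransferase genes the maintenance enzyme gene Dnmt1 (chr9:20907209-20959888) was the most abundant, at 99.14 and 102.65 TPM in WT and 145.18 and 156.24 TPM in Tet2 KO. Both Tet2 KO libraries lay above both WT libraries. The log2 fold change of 0.57 had an SE of 0.0494 (limma adjusted p = 2.69e-08), and 21.7% of tested genes rose by more. The rise of Dnmt1 was smaller on the other 3 scales, 0.32 (median-ratio), 0.28 (spike-in) and 0.46 (quantile), with limma adjusted p of 0.000227, 1.86e-05 and 2.53e-05.

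Uhrf1 (chr17:56303321-56323486), the partner that brings DNMT1 to hemimethylated DNA, did not rise with it. WT libraries had 54.47 and 54.53 TPM, Tet2 KO libraries slightly less, 53.13 and 53.39 TPM, with a log2 fold change of -0.03 (95% interval -0.15 to 0.08, limma adjusted p = 0.59). After median-ratio, spike-in and quantile scaling it was lower, with log2 fold changes of -0.28, -0.32 and -0.21 (limma adjusted p = 0.000582, 1.15e-05 and 0.00271). The ratio of Dnmt1 to Uhrf1 in deposited TPM was 1.82 and 1.88 in WT and 2.73 and 2.93 in Tet2 KO. The ratio of Dnmt1 to Pcna, the replication clamp gene, was 0.383 and 0.399 in WT and 0.509 and 0.591 in Tet2 KO.

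Both Dnmt1 and Uhrf1 are transcribed mainly in dividing cells, so a list of 23 DNA replication and S phase genes is given beside them. All 23 were tested: 8 rose and 4 fell, with a median log2 fold change of 0.08. Among all tested genes 54.4% rose and 19.5% fell, with a median of 0.228. After median-ratio scaling 4 of the list were higher and 13 lower, with a median of -0.17. For all tested genes that scaling gave 32.7% higher and 34.8% lower, with a median of -0.004. The thymidine kinase gene Tk1 fell from 26.6 ± 1.9 to 13.3 ± 1.58 TPM (SD, n = 2, as for every mean below) and Rrm2, which encodes a ribonucleotide reductase subunit, from 103.7 ± 0.311 to 61.6 ± 1.0 TPM. The DNA polymerase alpha gene Pola1 rose from 11.4 ± 0.672 to 19.9 ± 1.07 TPM. Pcna itself was at 259.18 and 257.33 TPM in WT and 285.23 and 264.44 TPM in Tet2 KO (limma adjusted p = 0.0763), and was lower after median-ratio scaling (log2 fold change -0.16, limma adjusted p = 0.0203). The part of these genes in the Dnmt1 difference was not tested.

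Of the de novo enzymes, Dnmt3a (chr12:3806007-3914443) measured 25.58 and 25.41 TPM in WT libraries against 30.24 and 31.70 TPM with Tet2 KO. The groups did not overlap and the log2 fold change of 0.27, close to the median of all genes, had an SE of 0.0608 (limma adjusted p = 0.000793). The call was lost on each of the other 3 scales, where the log2 fold change was 0.03, -0.02 and 0.02 (limma adjusted p = 0.661, 0.865 and 0.708). Dnmt3b (chr2:153649450-153687730), the related enzyme, was low, with 3.58 and 2.51 TPM in WT libraries against 4.58 and 4.89 TPM with Tet2 KO. Here too the groups were apart, but the WT libraries differed from each other by more than WT replicate 1 differed from Tet2 KO replicate 1. Its log2 fold change of 0.52, with SE 0.126 and limma adjusted p = 0.0018, became 0.32 after median-ratio scaling (limma adjusted p = 0.071), 0.28 after spike-in scaling (limma adjusted p = 0.0362) and 0.24 after quantile normalization (limma adjusted p = 0.143). On the deposited scale it was 0.32 without WT replicate 2 (limma adjusted p = 0.0461) and 0.71 without WT replicate 1 (limma adjusted p = 8.22e-05).

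Dnmt3l (chr10:78041947-78063622) was the only Dnmt gene called lower. WT libraries had 10.26 and 9.82 TPM and Tet2 KO libraries 6.11 and 6.18 TPM, with no overlap between groups. The log2 fold change of -0.63 had an SE of 0.0866 (limma adjusted p = 6.6e-06), and 6.28% of tested genes fell by more. On the other 3 scales the fall came to -0.85, -0.89 and -0.89. The neighbouring gene Aire overlaps Dnmt3l on the opposite strand and was at most at 0.16 TPM in these libraries. In a healthy animal Dnmt3l is known chiefly from germ cells and embryonic stem cells, and its transcript here was more abundant than that of Dnmt3b in every library.

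By share, Dnmt1 made up 71.6 and 73.1% of the summed TPM of the 4 Dnmt genes in WT and 78.0 and 78.5% in Tet2 KO. Dnmt3a took 18.5 and 18.1% in WT and 16.2 and 15.9% in Tet2 KO. Dnmt3l went from 7.4 and 6.99% to 3.28 and 3.11%, while the share of Dnmt3b overlapped between groups (2.58 and 1.79% against 2.46% in both Tet2 KO libraries). There were 2.49 and 2.59 Dnmt3a transcripts for each of Dnmt3l in WT and 4.95 and 5.13 in Tet2 KO.

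**Figure D3:**
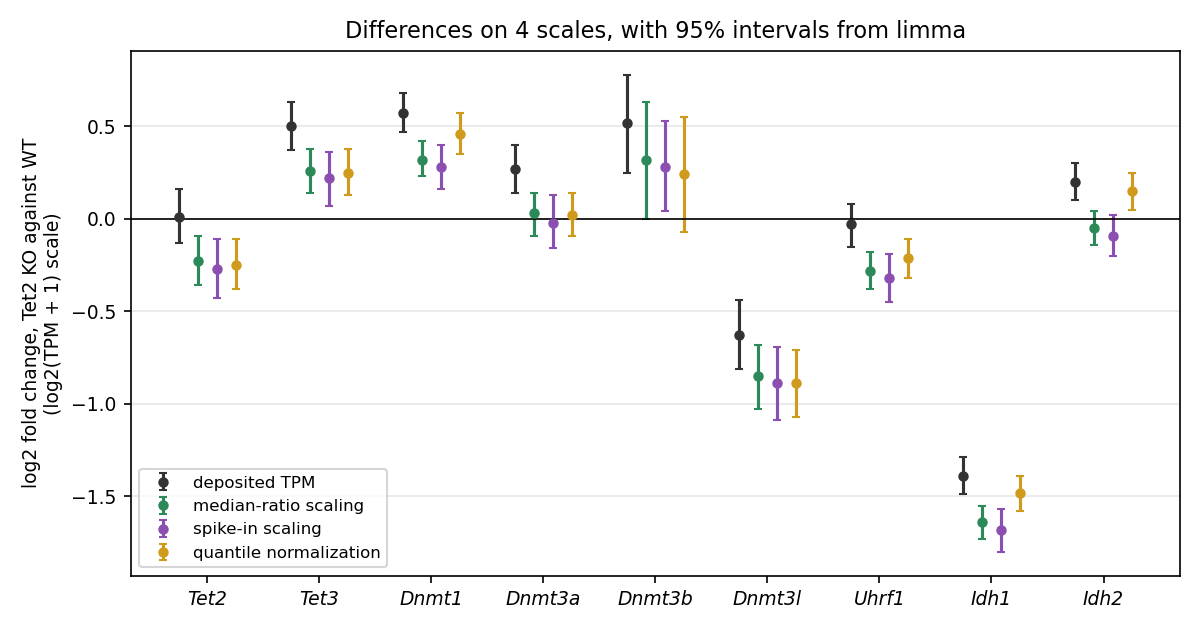
Log2 fold change of the 9 tested genes, Tet2 KO against WT, on the deposited scale and on 3 other scales, with 95% intervals from limma. Tet3 and Dnmt1 lie above 0 and Dnmt3l and Idh1 below 0 on all 4, while Tet2, Dnmt3a and Idh2 change sign between scales and Uhrf1 moves further below 0 from -0.03.

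Idh1 (chr1:65158616-65186500) showed the largest difference of the 9 tested members, with 172.69 and 179.1 TPM in WT libraries against 65.76 and 67.31 TPM with Tet2 KO. Every Tet2 KO library lay below every WT library by more than 100 TPM. The log2 fold change of -1.39 had an SE of 0.0473 (limma adjusted p = 2.73e-13), and only 167 of the 11452 tested genes fell by more (1.46%). On the other 3 scales it was -1.64, -1.68 and -1.48. Idh2 (chr7:80094846-80115392), the mitochondrial paralogue, moved little, from 155.09 and 152.02 TPM to 171.31 and 182.21 TPM. Its log2 fold change of 0.20, with SE 0.0456 and limma adjusted p = 0.000847, was close to the median of all genes, and turned to -0.05 after median-ratio scaling (limma adjusted p = 0.309) and -0.09 after spike-in scaling (limma adjusted p = 0.13). After quantile normalization it was called higher, at 0.15 (limma adjusted p = 0.0121).

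The balance between the paralogues changed accordingly. There were 1.11 and 1.18 Idh1 transcripts per Idh2 transcript in WT, and 0.384 and 0.369 in Tet2 KO. Their summed level went from 327.8 and 331.1 TPM to 237.1 and 249.5 TPM. Idh1 was thus the more abundant of the pair in both WT libraries and the less abundant in both Tet2 KO libraries.

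**Figure D4:**
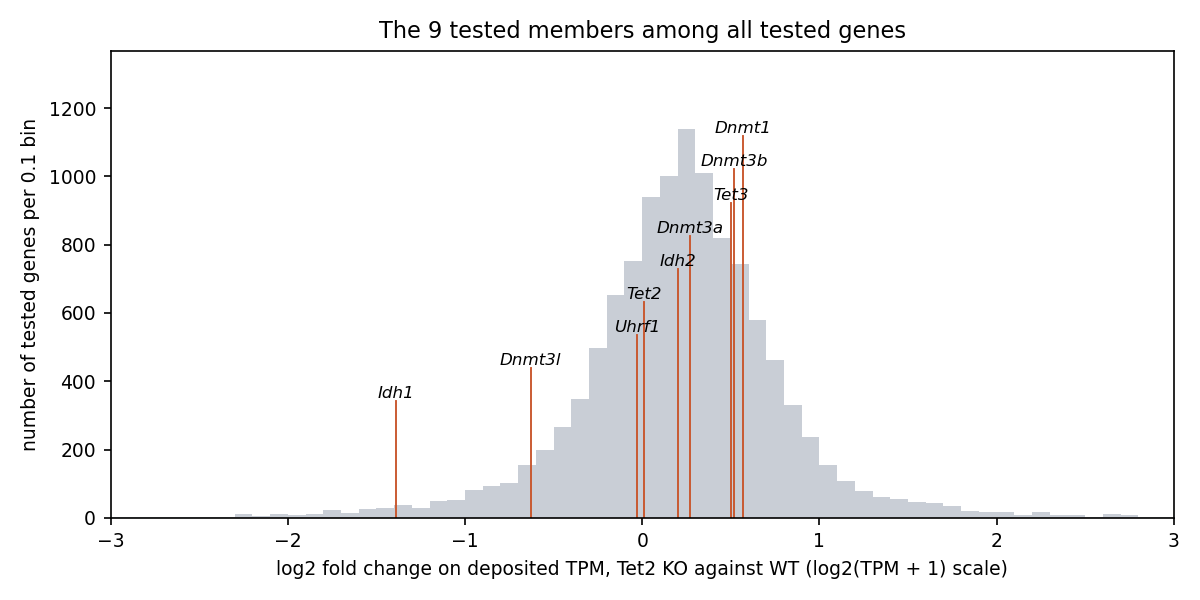
Number of tested genes per 0.1 bin of log2 fold change on the deposited scale (grey bars, 21 genes beyond 3 not shown), with the 9 tested genes as vertical lines whose height has no meaning. Idh1 (-1.39) lies in the lower tail, and Dnmt3a and Idh2 lie beside the median of all genes, 0.228.

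By the Euclidean distance between centred log2(TPM + 1) values over the 4 libraries, among 8971 genes averaging at least 5 TPM, the genes nearest to Idh1 were Chil3, Ms4a6d and Tfec, at distances of 0.0217, 0.0411 and 0.0533. Chil3, which encodes a chitinase-like lectin secreted by macrophages, had 343.11 and 350.57 TPM in WT libraries against 131.74 and 134.78 TPM with Tet2 KO. The genes nearest to Dnmt3l were Chtf18, Fam234a and Sh3bgrl3, at 0.0176, 0.025 and 0.0303. With 4 libraries in 2 groups this likeness reflects mainly a group difference of the same size.

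RefSeq promoter windows (GRCm38.p6), here the 250 bases before each annotated start, were found for all 10 genes, 18 windows in all. They are shown for Dnmt1 and Uhrf1, whose levels parted, and for Dnmt3l and Idh1, the members that fell. The letter strings searched on both strands were TTTNNCGC (a form of the E2F motif), CACGTG (the E-box) and TGTGGT (a RUNX motif, the one that AML1-ETO also recognises). Capitals mark matches, and the Idh1 window was trimmed by bases in an untranslated exon. The windows are chr9:20952980-20953229 (minus strand), chr17:56304063-56304312 (plus), chr10:78042037-78042286 (plus) and chr1:65186501-65186729 (minus).
Dnmt1: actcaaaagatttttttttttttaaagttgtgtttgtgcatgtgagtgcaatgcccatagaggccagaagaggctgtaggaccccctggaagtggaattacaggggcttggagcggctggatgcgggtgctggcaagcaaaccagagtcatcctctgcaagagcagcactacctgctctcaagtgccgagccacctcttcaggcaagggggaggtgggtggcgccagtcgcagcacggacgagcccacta
Uhrf1: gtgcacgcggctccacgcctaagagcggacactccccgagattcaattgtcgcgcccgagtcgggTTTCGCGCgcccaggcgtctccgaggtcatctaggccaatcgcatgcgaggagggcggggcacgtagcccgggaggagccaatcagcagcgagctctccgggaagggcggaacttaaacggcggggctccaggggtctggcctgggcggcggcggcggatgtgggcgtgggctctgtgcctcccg
Dnmt3l: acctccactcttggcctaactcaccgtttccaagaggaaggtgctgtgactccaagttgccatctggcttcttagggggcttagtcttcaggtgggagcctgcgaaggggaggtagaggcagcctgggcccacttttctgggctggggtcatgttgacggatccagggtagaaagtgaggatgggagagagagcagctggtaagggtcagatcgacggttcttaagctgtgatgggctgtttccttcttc
Idh1: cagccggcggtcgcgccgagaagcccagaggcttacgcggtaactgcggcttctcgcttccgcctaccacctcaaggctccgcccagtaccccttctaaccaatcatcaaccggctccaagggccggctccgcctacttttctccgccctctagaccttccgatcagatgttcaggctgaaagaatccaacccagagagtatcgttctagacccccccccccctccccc

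The E2F string was found in windows of 2 of the 10 genes, Uhrf1 and Dnmt1. It lay in both Uhrf1 windows and, as 2 overlapping matches, in the most downstream of the 3 Dnmt1 windows. That Dnmt1 window overlaps an untranslated exon and is not shown. It held 26 CG dinucleotides, and the Dnmt1 window shown held 7. Of all 32851 RefSeq windows 4.28% held the E2F string. The E-box string was in windows of 2 genes, Dnmt3a and Dnmt3l (6.02% of all windows), and the RUNX string in 1 window of Uhrf1 (14.0% of all windows). No CG-rich window was found for Dnmt3l, with at most 5 CG dinucleotides, whereas the window of Tet2 held 51, more than 99.9% of all windows, against a median of 6. A match is a description of letters and not a site, and methylation of these windows was not measured.

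The genes around the members were taken as 10 lists. Of 15 methyl-CpG readers and methylation cofactors, all tested, 12 rose and 0 fell, with a median log2 fold change of 0.43, where 54.4% of all tested genes rose and 19.5% fell. After median-ratio scaling 8 were higher and 3 lower, with a median of 0.18, where 32.7% and 34.8% of all tested genes were. Zbtb38, which encodes a zinc finger reader, rose from 20.0 ± 0.488 to 32.6 ± 1.27 TPM. Smchd1, a silencing factor gene of the inactive X, rose from 23.6 ± 1.15 to 37.5 ± 1.55 TPM and Zbtb33, which encodes Kaiso, from 8.77 ± 0.396 to 13.9 ± 1.24 TPM. Uhrf2, the paralogue of Uhrf1, went from 31.43 and 32.31 TPM to 47.27 and 47.10 TPM, a log2 difference of 0.55 (limma adjusted p = 2.13e-07), and was higher after median-ratio scaling too (0.31, limma adjusted p = 0.000531).

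Of 12 TET partners and regulators 6 were tested, and the other 6 were listed at 0.2 TPM or less in every library. Among the 6 tested genes 4 rose and 1 fell (median 0.56), where 54.4% and 19.5% of all tested genes did. After median-ratio scaling 4 were higher and 2 lower, where 32.7% and 34.8% of all tested genes were. Ogt, which encodes the O-GlcNAc transferase that binds TET proteins, rose from 92.0 ± 4.7 to 168.9 ± 0.346 TPM and Cxxc5, a CXXC-domain regulator, from 22.1 ± 0.516 to 40.7 ± 0.318 TPM. Vprbp (Dcaf1), a ubiquitin ligase adaptor gene, rose from 20.1 ± 0.0424 to 32.0 ± 0.721 TPM and Sin3a, a corepressor scaffold gene, from 30.1 ± 1.11 to 42.2 ± 1.31 TPM. Wt1, Ebf1 and Prdm14 were listed at 0 in all libraries.

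Of the 17 base excision and active demethylation genes 16 were tested, and 7 rose and 2 fell (median 0.22), or 5 and 6 after median-ratio scaling. The shares of all tested genes were 54.4% and 19.5%, or 32.7% and 34.8% after that scaling. The stress-induced gene Gadd45a rose from 26.2 ± 2.41 to 99.1 ± 1.42 TPM, while its paralogue Gadd45g fell, with 45.4 and 41.45 TPM in WT libraries against 24.34 and 23.67 TPM with Tet2 KO. Ung, the uracil glycosylase gene, rose from 9.02 ± 0.0566 to 14.9 ± 0.771 TPM and Hmces, which protects abasic sites, from 6.83 ± 0.318 to 11.8 ± 1.83 TPM. Tdg, the glycosylase that removes oxidised methylcytosines, was listed at 0.78 and 0.57 TPM in WT libraries against 0 and 1.07 TPM with Tet2 KO. It was not tested, and its value is uncertain because it has near-identical copies.

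Not all genes of the list named for 2-oxoglutarate and TCA supply have products that supply 2-oxoglutarate. Those of Ogdh, Dlst and Dld form the complex that consumes it, so the counts of this list do not measure supply. Among its 19 genes 18 were tested, and 7 rose and 6 fell (median 0.04), or 2 and 11 after median-ratio scaling. The shares of all tested genes were 54.4% and 19.5%, or 32.7% and 34.8% after that scaling. Both rises and falls became fewer when either WT replicate was left out, and so did the calls over all tested genes. Gpt2, the mitochondrial alanine aminotransferase gene, rose from 12.1 ± 0.191 to 47.8 ± 0.841 TPM. Idh3a, which encodes the catalytic subunit of the NAD-dependent isocitrate dehydrogenase, fell from 72.0 ± 2.68 to 42.3 ± 2.84 TPM, while the regulatory subunit genes Idh3b and Idh3g had log2 fold changes of 0.11 and 0.16 on the deposited scale and of -0.15 and -0.09 after median-ratio scaling. Gpt, the cytosolic aminotransferase gene, rose from 2.16 ± 0.12 to 3.03 ± 0.0566 TPM on the deposited scale (limma adjusted p = 0.00979), and was not called on the other 3 scales or without WT replicate 2 (limma adjusted p = 0.0763 to 0.469). Idh1 and Idh3a were thus both lower on the deposited scale and after median-ratio scaling.

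Succinate, fumarate and 2-hydroxyglutarate inhibit enzymes of the TET class. The list named for their clearance has 13 genes, but not all of their products chiefly clear these metabolites. Mdh1, Mdh2, Adhfe1 and Suclg1 are among the exceptions, and the products of Mdh1 and Mdh2 interconvert malate and oxaloacetate. The counts of this list therefore do not measure clearance. All 13 were tested, and 1 rose and 7 fell (median -0.10), where 54.4% of all tested genes rose and 19.5% fell (median 0.228). The 1 rise was lost when either WT replicate was left out. After median-ratio scaling 0 were higher and 10 lower (median -0.35), where 32.7% and 34.8% of all tested genes were. Adhfe1, a hydroxyacid-oxoacid transhydrogenase gene, fell from 4.72 ± 0.177 to 1.02 ± 0.368 TPM and the malate dehydrogenase gene Mdh2 from 483.0 ± 6.17 to 318.1 ± 12.0 TPM. Suclg1 fell from 126.8 ± 0.82 to 100.6 ± 5.3 TPM and Mdh1 from 134.7 ± 0.905 to 108.2 ± 2.44 TPM.

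Other 2-oxoglutarate dioxygenases outside chromatin moved both ways. Of 20 tested among 23 listed, 11 rose and 4 fell (median 0.22), or 5 and 5 after median-ratio scaling. The shares of all tested genes were 54.4% and 19.5%, or 32.7% and 34.8% after that scaling. Egln3, a prolyl hydroxylase gene of the hypoxia pathway, fell from 35.1 ± 1.53 to 11.7 ± 0.339 TPM and Phyh, the phytanoyl-CoA hydroxylase gene, from 11.6 ± 1.07 to 5.5 ± 0.247 TPM. Plod1, a collagen lysyl hydroxylase gene, rose from 35.5 ± 0.94 to 68.3 ± 2.26 TPM and Alkbh8, a tRNA-modifying enzyme gene, from 7.02 ± 0.325 to 12.1 ± 0.0495 TPM.

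In the S-adenosylmethionine cycle, which supplies the methyl donor, 14 of 18 genes were tested. Of them 9 rose and 3 fell (median 0.26), or 6 and 4 after median-ratio scaling. The shares of all tested genes were 54.4% and 19.5%, or 32.7% and 34.8% after that scaling. Shmt2, the mitochondrial serine hydroxymethyltransferase gene, rose from 115.5 ± 1.65 to 224.5 ± 7.36 TPM and the methionine synthase gene Mtr from 12.3 ± 0.969 to 21.2 ± 0.537 TPM. Mthfd1, a cytosolic folate enzyme gene, fell from 40.8 ± 0.212 to 22.5 ± 1.63 TPM.

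**Figure D5:**
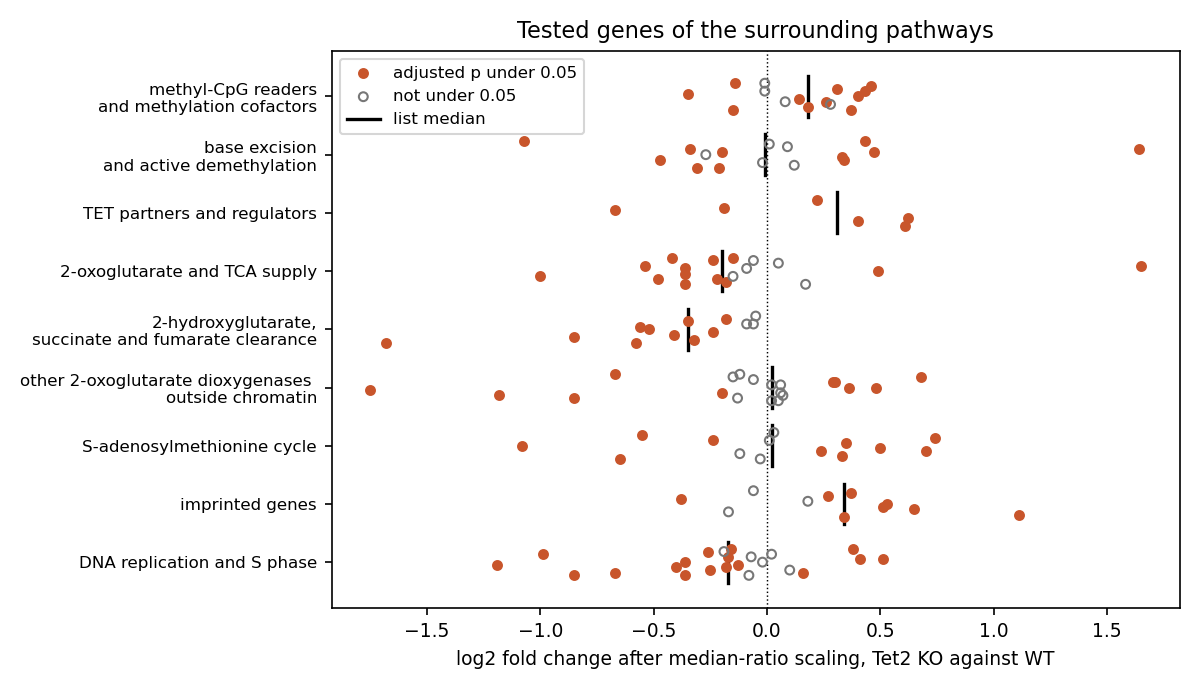
Log2 fold change after median-ratio scaling of the tested genes of 9 lists, Tet2 KO against WT, with filled points for an adjusted p under 0.05 and a black line at each list's median. The medians run from -0.35 for the list named for clearance of 2-hydroxyglutarate, succinate and fumarate to 0.34 for imprinted genes. The former includes Mdh1, Mdh2, Adhfe1 and Suclg1, whose products do not chiefly clear them. Every list but that one has called genes on both sides of 0.

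Genes known to be kept silent by DNA methylation, and imprinted genes as a separate list, gave a last comparison. Of 21 germline and pluripotency genes of the first kind, which include Dazl, Sycp3 and Nanog, 0 reached the filter. Listed at 0 in all libraries were 14 of them, and the highest value was 0.48 TPM, of Brdt. Their summed level was 0.7 and 0.64 TPM in WT and 0.92 and 0.64 TPM in Tet2 KO, so the groups did not separate. Imprinted genes need not be silent, and TPM per gene do not separate alleles, so their counts do not measure silencing. Of 30 imprinted genes 11 were tested, and 9 rose and 1 fell (median 0.51), where 54.4% and 19.5% of all tested genes did. After median-ratio scaling 7 were higher and 1 lower (median 0.34), where 32.7% and 34.8% of all tested genes were. The filter bears on these counts, since without it 9 were higher and 4 lower. Phlda2, at 0.1 and 0.11 TPM in WT libraries against 1.68 and 1.39 TPM with Tet2 KO, passed it only through Tet2 KO. Cdkn1c, at 0.84 and 1.03 against 1.53 and 1.89 TPM, also needed the Tet2 KO libraries to pass, and both count among the rises. Igf2r, at 0.56 and 0.74 against 0.1 and 0.15 TPM, did not pass. Nor did H19, Igf2, Peg10 and Sgce, lower in both Tet2 KO libraries, or Peg12, higher in both, all at 0.19 TPM or less. Grb10, an adaptor gene of growth factor receptors, rose from 1.72 ± 0.17 to 3.83 ± 0.184 TPM and Nnat, which encodes neuronatin, from 3.43 ± 0.523 to 6.38 ± 0.629 TPM. Zrsr1 and Mcts2 rose as well, to 13.4 ± 0.481 and 14.4 ± 2.47 from 7.67 ± 0.403 and 9.07 ± 1.04 TPM, but both are retrocopies of expressed genes, so their values are uncertain. Gnas, which encodes the stimulatory G protein alpha subunit and was by far the most abundant of the list, was the gene that fell, from 612.06 and 617.67 TPM to 551.80 and 570.02 TPM. Its log2 fold change was -0.13 (limma adjusted p = 0.0032), and it was not called after quantile normalization or without trend and robust estimation.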

How the data were processed

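RNA from 2 WT and 2 Tet2 KO libraries of cultured mouse leukaemia cells was extracted with QIAzol and sequenced from stranded mRNA libraries, per the labels' protocols. STAR, RSEM and the mm10 build are named, per the submitters' processing notes. Their versions, the annotation release, filters and strand settings were not given in the sources used here. A single TPM table was deposited by the authors. It has 24589 rows, 92 of them ERCC spike-ins, which were left out of the tests. TPM keep no depth, so no interval or floor from counts was computed. A further 27 rows with date-like names were kept as genes and not named.

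Groups were compared with limma 3.58.1 (R 4.3.3, statmod 1.5.0) on log2(TPM + 1), with trend and robust estimation, for genes that reached 1 TPM in 2 or more libraries. Adjusted p-values are Benjamini-Hochberg over 11452 genes, two-sided, threshold 0.05. The steps were tested on simulated data. The members, gene lists, tests and alternatives were chosen with earlier results of these data known. Named beside the members were up to 4 called genes per list with the largest log2 fold change, no overlap between groups and 2 TPM or more on average in the group with the higher level, and the 3 genes nearest in pattern to the 2 called members of largest change. Some genes that this rule picks are not reported here. Other genes were named after their values were seen (Uhrf2, Pcna, Tdg, Gnas, Phlda2, Igf2r, Brdt, Idh3b, Idh3g and those listed at 0). So were Cdkn1c, H19, Igf2, Peg10, Sgce, Peg12, Ogdh, Dlst and Dld. Alternatives were median-ratio, spike-in or quantile scaling, a filter of 5 TPM or none, a pseudocount of 0.1 or 5, a replicate block, no trend and not robust, and leaving out each library. Gene positions and Tet2 exons are from GENCODE M21 on GRCm38, which is mm10, and promoters from RefSeq. Figures used matplotlib 3.10.9 in Python 3.11.15.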

Additional observations from a re-analysis of the deposited data

How the results depend on the processing

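The choice of scale altered the counts of called members. The 5 higher became 2 after median-ratio scaling, 3 after spike-in scaling and 3 after quantile normalization, and the 2 lower became 4 after each of these. The replicate block, both other pseudocounts and the fit without trend and robust estimation left 5 higher and 2 lower. With the filter of 5 TPM 4 were higher and 2 lower, as Dnmt3b was not tested there. With no filter 6 were higher and 2 lower, as Tet1 was tested too. All genes called went from 8463 to 7402 with the filter of 5 TPM and 8792 with none, settings that change how many genes are tested. Under the other alternatives that keep every library, between 7656 and 8470 genes were called.

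Direction turned for Tet2 (log2 fold change 0.01, then -0.23, -0.27 and -0.25 after median-ratio, spike-in and quantile scaling, and -0.0012 to 0.03 with 1 library left out, the first without WT replicate 1), for Dnmt3a (-0.02 after spike-in scaling) and for Idh2 (-0.05 after median-ratio and -0.09 after spike-in scaling). Median-ratio and spike-in scaling divide every gene of a library by the same factor. They moved the median log2 fold change of all tested genes from 0.228 to -0.004 and -0.044. Why the scales differ was not tested. Tet3, Dnmt1, Dnmt3l and Idh1 stayed called in 1 direction under all 13 alternatives.

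Shares of a family, Tet2 KO minus WT, in percentage points with 1 library left out, ranged from -9.12 to -7.98 for Tet2, 7.8 to 8.89 for Tet3, 0.182 to 0.235 for Tet1, 5.14 to 6.71 for Dnmt1, -2.37 to -2.01 for Dnmt3a, -4.21 to -3.8 for Dnmt3l and -0.125 (without WT replicate 2) to 0.671 for Dnmt3b.

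Replicate numbers are shared between the groups, but nothing says they pair cultures, and the differences between replicates correlated at -0.0733 across 7943 genes. With the replicate block 8390 genes were called, and no call of a member changed. Of 36 other genes that the naming rule picks, Gpt alone lost its call under any alternative. Depth is unknown, so precision at the level of Tet1 or Dnmt3b cannot be judged.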
